A study of Mus musculus with 4 samples.

Results

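A set of 31 genes that mark Kupffer cells and other macrophages was read across 4 mouse liver libraries. The members were chosen by name, as the rows of the count table that carry 1 of 31 gene symbols, out of 35275 genes listed, and all 31 were found (Adgre1 under its older symbol, Emr1). They were divided by role into 7 genes of resident Kupffer cells (Adgre1, Clec4f, Cd5l, Vsig4, Timd4, Marco and Cd163) and 24 others, namely 11 monocyte and phagocyte genes, the 3 C1q chains, 4 genes of Fc receptors and their signalling adaptors, and 6 clearance receptors or related membrane proteins. Mouse liver RNA was sequenced in a design that crosses AApoAII amyloidosis, a systemic deposition of fibrils of apolipoprotein A-II, with treadmill interval training (IT). The 4 groups were vehicle sedentary (VS), vehicle interval exercise (VI), fibril sedentary (FS) and fibril interval exercise (FI), where vehicle is an injection of saline and fibril an injection of AApoAII fibrils into the tail vein. All 16 mice were females that carried the amyloidogenic Apoa2c allele, so the vehicle groups carried it too, and the livers were taken at 26 weeks of age after 16 weeks of training or sedentary life. The labels give the strain as AKR/J, whereas the study's text gives R1.P1-Apoa2c congenic mice, a line that carries the allele on a SAMR1 background. The RNA of 4 mice was pooled for each group and sequenced as 1 library, so the spread between mice is not visible in these values.

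Kupffer cells are the macrophages that live inside the liver sinusoids, where they take up particles, dying cells and protein complexes from the blood with an array of scavenger, complement and Fc receptors. Most are seeded before birth and renew themselves in place under the growth factor receptor Csf1r, while monocytes that arrive from the blood can replace lost cells and acquire the resident programme step by step. Genes such as Clec4f, Timd4 and Vsig4 are characteristic of the resident cells, whereas Ccr2 and Itgam are more typical of monocytes and newly arrived cells, and Trem2 and Gpnmb of macrophages that take up lipid or dead cells.

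Total counts were between 23442935 and 28814802 per library. Values are given as CPM, the counts scaled by the TMM method to a library of 1000000 counts, and a difference between 2 libraries as the log2 ratio of CPM after a prior of 0.5 counts was added. The interval in brackets is an exact 95% binomial interval that covers counting error only, and a gene was called past 2-fold when its log2 ratio was above 1 or below -1. This was counted over the 12180 genes that reached 1 CPM in any library, which include 29 of the 31 members. Gpnmb and Ccr2 were under that limit, Trem2 passed it only through VI, and Itgam only through FS and FI. With 1 pooled library per group, no test can be made within a single contrast. In whole liver RNA, a larger number of macrophages and more RNA of a gene per macrophage cannot be told apart.

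The defining transcripts of Kupffer cells were present in all 4 libraries. Compared per transcript length, as the authors' FPKM values averaged over the 4 libraries, the highest members were C1qa at 61.9 FPKM, Clec4f at 47.0 FPKM, C1qc at 39.0 FPKM, Lyz2 at 38.6 FPKM, Cd5l at 36.6 FPKM and C1qb at 36.0 FPKM. The lowest were Fcgr1 at 0.570 FPKM, Itgam at 0.239 FPKM, Trem2 at 0.189 FPKM, Ccr2 at 0.104 FPKM and Gpnmb at 0.0662 FPKM. The top of this order thus held C1q chains, lysozyme and resident Kupffer cell genes, and its bottom the monocyte chemokine receptor, the integrin chain and the lipid-associated receptors. Reads could be split between Lyz2 and its close copy Lyz1, which had at most 3 counts, and between Fcgr3 and its relatives Fcgr2b and Fcgr4. Csf1r overlaps Hmgxb3 on the opposite strand, which had up to 364 counts, and whether reads were counted by strand was not stated in the sources read.

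**Figure D1:**
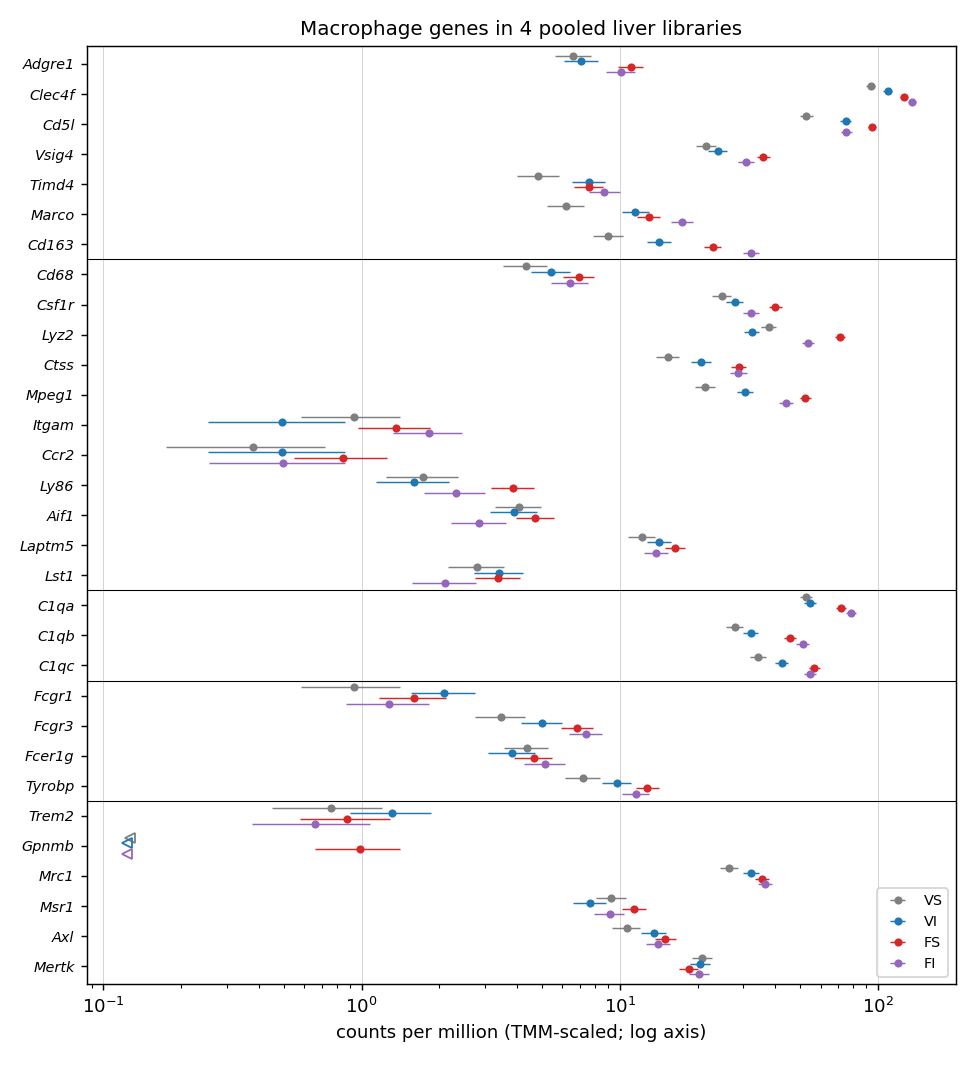
Level of each of the 31 macrophage genes, in TMM-scaled CPM on a log axis, in the libraries VS (vehicle sedentary), VI (vehicle with interval training), FS (fibril sedentary) and FI (fibril with interval training). Points are single pooled libraries, bars are exact 95% Poisson intervals for counting error, open triangles stand at 3 counts for Gpnmb in the libraries where it was listed at 0, and lines separate the 5 roles. Both fibril libraries lie to the right of both vehicle libraries for 22 of the 31 genes.

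Macrophage genes were higher in fibril livers than in vehicle livers, resident and other genes alike. In sedentary livers, 28 of 29 members were higher in FS than in VS, where 52% of all genes were, and in trained livers 23 of 29 were higher in FI than in VI, where 51.3% of all genes were. Both fibril libraries lay above both vehicle libraries for 22 of the 31 members, among them 6 of the 7 resident genes and 16 of the 24 others (Ccr2 with 12 counts in both VI and FI), while 24.4% of all genes did so. The summed level of the 31 genes was 519 CPM in VS and 614 in VI, against 824 in FS and 790 in FI. The contrasts FS versus VS and FI versus VI share no library.

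The excess was mostly under 2-fold. Past 2-fold and higher in FS than in VS were 4 members, Cd163, Mpeg1, Ly86 and Marco, against 3.6% of all genes, and none was lower by that much, against 2.18%. In FI versus VI, 2 members were higher by over 2-fold, Itgam and Cd163, against 2.59% of all genes, and none was lower, against 1.95%. Itgam, with 12 counts in VI and 44 in FI, was counted only because it reached 1 CPM in the fibril libraries. Cd163 was the only member past 2-fold in both. The median log2 ratio of the 7 resident genes was 0.74 in FS versus VS and 0.37 in FI versus VI, and that of the 22 other genes kept was 0.61 and 0.25, beside 0.02 and 0.01 for all genes. The medians of both sets were thus smaller in trained than in sedentary livers, a difference that was not tested.

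**Figure D2:**
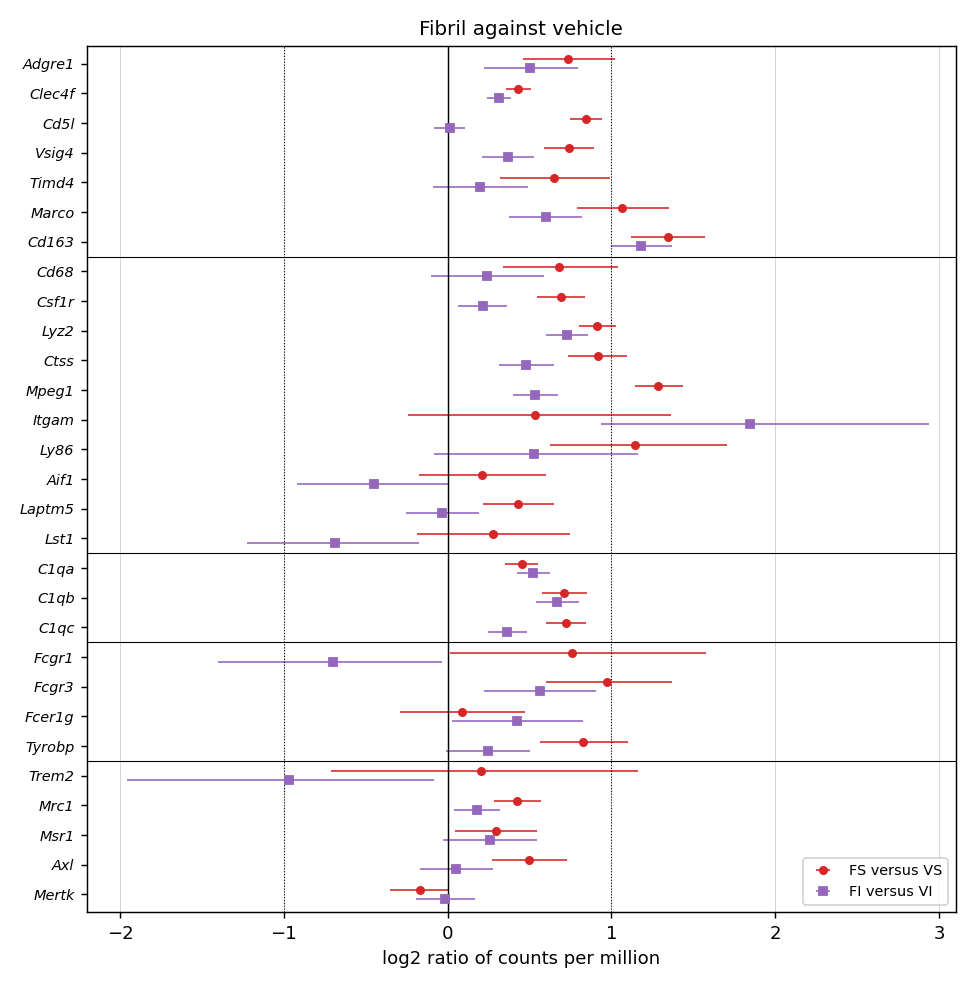
Log2 ratio of CPM in fibril against vehicle livers, sedentary (FS versus VS, circles) and trained (FI versus VI, squares), for the 29 members with at least 1 CPM in 1 library. Bars are exact 95% binomial intervals for counting error, and dotted lines mark 2-fold. Of the circles 28 of 29 lie right of 0, of the squares 23 of 29, and Cd163 lies past 2-fold in both.

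Among the resident Kupffer cell genes, Cd163 had the largest difference. Cd163, the scavenger receptor for haemoglobin bound to haptoglobin, had 9.02 CPM in VS and 14.2 in VI, against 22.9 in FS and 32.3 in FI. It increased in that order without overlap of the counting intervals, by a log2 ratio of 1.34 (1.12 to 1.57) in sedentary and 1.18 (0.998 to 1.37) in trained livers. Marco, a scavenger receptor for bacteria and particles, followed the same order, with 6.18 CPM in VS and 11.5 in VI, against 12.9 in FS and 17.4 in FI. With fibrils the log2 ratio was 1.06 (0.79 to 1.35) in sedentary and 0.60 (0.38 to 0.82) in trained livers.

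The most specific resident genes differed less. Clec4f, a galactose-binding lectin found on Kupffer cells, had 93.5 CPM in VS and 109 in VI, against 126 in FS and 136 in FI, with log2 ratios of 0.43 (0.36 to 0.51) in sedentary and 0.32 (0.24 to 0.39) in trained livers. Vsig4, a receptor for complement C3 fragments, had 21.6 CPM in VS and 23.9 in VI, against 36.0 in FS and 30.8 in FI. Adgre1, which encodes the antigen F4/80, had 6.61 CPM in VS and 7.10 in VI, against 11.01 in FS and 10.1 in FI. For both, FS and FI lay above VS and VI, and FS was the highest. Timd4, a receptor for phosphatidylserine on dying cells, had 4.83 CPM in VS and between 7.59 and 8.72 CPM in the 3 other libraries, so that VS stood below the rest and VI was level with FS. Cd5l, a secreted macrophage protein known as AIM, had 52.8 CPM in VS and 74.9 in VI, against 94.8 in FS and 75.5 in FI. The ratio on the log2 scale was 0.84 (0.75 to 0.94) in sedentary and 0.01 (-0.08 to 0.11) in trained livers, so FS was above VS, while FI and VI were near level.

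Of the monocyte and phagocyte genes, Mpeg1, Lyz2 and Ctss are the 3 that passed the test of the additive model given further on. Mpeg1, which encodes the pore-forming protein perforin-2, had 21.5 CPM in VS and 30.5 in VI, against 52.4 in FS and 44.2 in FI, with log2 ratios of 1.29 (1.14 to 1.43) in sedentary and 0.53 (0.40 to 0.67) in trained livers. Lyz2, the lysozyme of macrophages and neutrophils, had 37.7 CPM in VS and 32.4 in VI, against 71.1 in FS and 53.7 in FI, with log2 ratios of 0.91 (0.80 to 1.03) and 0.73 (0.60 to 0.86). Ctss, the lysosomal protease cathepsin S, had 15.3 CPM in VS and 20.7 in VI, against 28.9 in FS and 28.81 in FI. In all 3, FS and FI lay above VS and VI with no overlap of the counting intervals.

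Other genes of the same role did not pass that test, and their ratios ranged widely. Csf1r, the receptor for the macrophage growth factor Csf1, had 24.8 CPM in VS and 27.9 in VI, against 40.0 in FS and 32.3 in FI. Cd68, a glycoprotein of late endosomes, had 4.32 CPM in VS and 5.42 in VI, against 6.94 in FS and 6.41 in FI. Both were highest in FS. Laptm5, a lysosomal membrane protein of blood cells, had 12.2 CPM in VS and 14.2 in VI, against 16.4 in FS and 13.8 in FI, and its log2 ratio of -0.03 (-0.25 to 0.19) in FI versus VI had an interval across 0. Ly86, which encodes the partner protein MD-1 of a Toll-like receptor homologue, had 1.74 CPM in VS and 1.60 in VI, against 3.86 in FS and 2.31 in FI, which put FS above VS by 1.14 (0.63 to 1.71) on the log2 scale. Thus Ly86 stood high in FS and between the others in FI.

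Genes of the rarer monocyte type were at few counts. Itgam, the CD11b chain of an integrin, had 22 counts in VS and 12 in VI, against 40 in FS and 44 in FI, and Ccr2, the receptor by which monocytes follow Ccl2, had 9 counts in VS and 12 in VI, against 25 in FS and 12 in FI. The log2 ratio of Itgam was 0.53 (-0.24 to 1.36) in sedentary and 1.84 (0.94 to 2.94) in trained livers, and that of Ccr2 was 1.11 (0.00 to 2.44) and 0.01 (-1.27 to 1.29). The interval for Itgam in trained livers lay clear of 0, and that for Ccr2 in sedentary livers touched it. Aif1, a calcium-binding protein of the macrophage cytoskeleton, had 4.07 CPM in VS and 3.90 in VI, against 4.71 in FS and 2.85 in FI. Lst1, a small membrane protein of leukocytes, had 2.79 CPM in VS and 3.41 in VI, against 3.39 in FS and 2.11 in FI. Both were lowest in FI, and for Lst1 the log2 ratio in FI versus VI was -0.69 (-1.23 to -0.17). Aif1 and Lst1 are near neighbours on chromosome 17.

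The 3 chains of C1q, the recognition subunit of the classical complement pathway that macrophages secrete, had similar profiles. C1qa had 52.6 CPM in VS and 54.7 in VI, against 71.9 in FS and 78.6 in FI. C1qb had 27.9 CPM in VS and 32.1 in VI, against 45.7 in FS and 51.1 in FI. C1qc had 34.3 CPM in VS and 42.3 in VI, against 56.6 in FS and 54.5 in FI. The vehicle and fibril libraries did not overlap in any of the 3, whose log2 ratios lay between 0.45 and 0.72 in FS versus VS and between 0.37 and 0.67 in FI versus VI. The 3 genes form 1 cluster on the minus strand of chromosome 4, with C1qb starting the span at base 136880129 and C1qa ending it at base 136898803 of mm10.

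Fc receptors and their adaptors were more mixed. Fcgr3, a low-affinity receptor for immunoglobulin G, had 3.47 CPM in VS and 5.01 in VI, against 6.84 in FS and 7.40 in FI. Tyrobp, the adaptor DAP12 through which Trem2 signals, had 7.20 CPM in VS and 9.73 in VI, against 12.8 in FS and 11.5 in FI. Both fibril libraries lay above both vehicle libraries for these 2 genes. Fcer1g, the common gamma chain of Fc receptors, had the same order within a narrow range of 3.82 to 5.13 CPM. Its log2 ratio was 0.09 (-0.29 to 0.47) in sedentary and 0.42 (0.03 to 0.83) in trained livers. Fcgr1, the high-affinity receptor for immunoglobulin G, had 22 counts in VS and 51 in VI, against 47 in FS and 31 in FI, with VI the highest. Its log2 ratio came to 0.76 (0.01 to 1.57) in sedentary and -0.70 (-1.40 to -0.04) in trained livers, opposite in sedentary and trained livers.

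The clearance receptors had the smallest median ratios of the 5 roles. Their median log2 ratio was 0.29 in FS versus VS and 0.05 in FI versus VI over the 5 of 6 genes kept. Mrc1, the mannose receptor, had 26.4 CPM in VS and 32.3 in VI, against 35.5 in FS and 36.5 in FI, and Axl, a receptor for the bridging protein Gas6, had 10.6 CPM in VS and 13.6 in VI, against 15.0 in FS and 14.1 in FI. Msr1, a scavenger receptor for modified lipoproteins, lay between 7.64 CPM in VI and 11.4 CPM in FS. Mertk, another receptor for Gas6 and Pros1 that serves the uptake of dying cells, lay between 18.5 CPM in FS and 20.8 CPM in VS and had the only log2 ratio below 0 in FS versus VS, -0.17 (-0.35 to 0.01). Mrc1 and Axl were thus lowest in VS, and Mertk was near level in all libraries.

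Trem2 and Gpnmb, which mark lipid-associated macrophages, were at few counts. Trem2, a lipid-sensing receptor, had 18 counts in VS and 32 in VI, against 26 in FS and 16 in FI. Gpnmb, a glycoprotein of lysosome-rich macrophages, had 29 counts in FS and was at 0 in VS, VI and FI. Set against a floor of 3 counts per library, its observed level in FS was 7.73-fold the floor in VS and 7.92-fold that in FI. The counting interval of the log2 ratio began at 2.56 in FS versus VS and ended at -2.59 in FI versus FS. Differences smaller than those fold values thus lie within counting error. These values come from 1 library without a replicate.

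**Figure D3:**
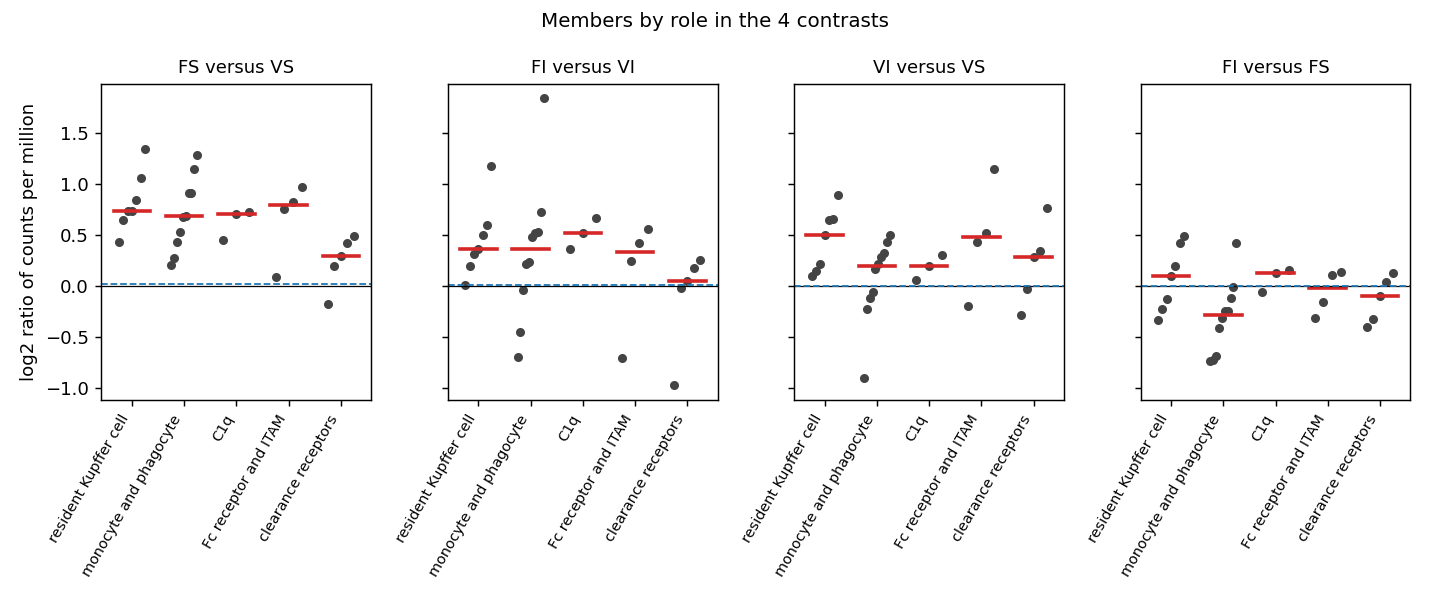
Log2 ratio of CPM of each member kept (points), grouped by role, in the 4 contrasts. Red bars are the medians of each role and the dashed blue line is the median of all 12180 genes. The medians of resident genes lie at 0.74, 0.37, 0.50 and 0.10, and those of monocyte and phagocyte genes at 0.69, 0.36, 0.20 and -0.28.

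The only test the design allows is an additive model of amyloidosis and IT over the 4 libraries, which has 1 residual degree of freedom, the interaction, so that a gene whose response to fibrils depends on training loses strength in it. It was fitted on the 11760 genes that reached 1 CPM in 2 or more libraries, 28 members among them (not Gpnmb, Ccr2 or Trem2). With edgeR's quasi-likelihood test and Benjamini-Hochberg adjustment over all genes, 7 of the 28 rose with amyloidosis at an adjusted p under 0.05, against 2.81% of all genes, and none fell, against 2.17%. The 7 were Cd163, Lyz2, C1qb, Marco, Ctss, Mpeg1 and C1qa, each with both fibril libraries above both vehicle libraries. They include 2 of 7 resident genes and 5 of 21 others, among them 2 of the 3 C1q chains, and none of the Fc receptor or clearance genes.

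Cd163 had a log2 fold change of 1.25 (SE 0.14, adjusted p = 0.0036 by edgeR). For Lyz2 it was 0.82 (SE 0.11, adjusted p = 0.0085 by edgeR) and for C1qb 0.68 (SE 0.11, adjusted p = 0.014 by edgeR). The other 4 had log2 fold changes between 0.48 for C1qa and 0.90 for Mpeg1, with adjusted p of 0.034 for Marco, 0.036 for Ctss, 0.039 for Mpeg1 and 0.044 for C1qa. Just over the threshold were C1qc at 0.54 (adjusted p = 0.05002) and Vsig4 at 0.55 (adjusted p = 0.060), both higher in FS and FI. An unadjusted p under 0.05 by edgeR was reached by 17 of the 28, all higher with amyloidosis. Of all 11760 genes fitted, 2512 reached it, 1272 of them higher. Among the 17 members was Itgam, which was fitted only because it reached 1 CPM in FS and FI, the libraries where it was high. DESeq2 with the same design called 4 of the 7, Cd163, Lyz2, C1qb and Mpeg1, limma-voom called all 7 and C1qc, and a fit of amyloidosis alone, 2 libraries against 2, called 0. Without the filter on low counts, edgeR called 16 of the 31, all higher. The shares of all genes called in these other fits were not counted, so their counts cannot be set against a background.

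The promoters of 4 of these genes are shown because they are, of the resident genes and of the others, the 2 with the lowest adjusted p that the sequence table holds. They come from RefSeq on GRCm38.p6, the assembly of mm10, and cover the 250 bases before the annotated start, 5′ to 3′ on the strand of the gene. Capitals mark the word GAGGAA, the core that the myeloid factor PU.1 favours, in either orientation. The windows are chr6:124304401-124304650 (plus strand) for Cd163, chr1:120505025-120505274 (minus strand) for Marco, chr10:117282273-117282522 (minus strand) for Lyz2 and chr4:136886201-136886450 (minus strand) for C1qb.
Cd163: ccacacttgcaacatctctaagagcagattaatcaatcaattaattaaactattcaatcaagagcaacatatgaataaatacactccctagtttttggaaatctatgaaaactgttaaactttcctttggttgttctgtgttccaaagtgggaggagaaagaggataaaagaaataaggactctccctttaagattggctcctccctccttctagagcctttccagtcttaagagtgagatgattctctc
Marco: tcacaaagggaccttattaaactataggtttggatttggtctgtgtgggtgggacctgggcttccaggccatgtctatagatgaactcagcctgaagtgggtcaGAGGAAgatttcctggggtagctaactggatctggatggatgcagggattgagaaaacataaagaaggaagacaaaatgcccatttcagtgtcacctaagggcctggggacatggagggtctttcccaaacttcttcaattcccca
Lyz2: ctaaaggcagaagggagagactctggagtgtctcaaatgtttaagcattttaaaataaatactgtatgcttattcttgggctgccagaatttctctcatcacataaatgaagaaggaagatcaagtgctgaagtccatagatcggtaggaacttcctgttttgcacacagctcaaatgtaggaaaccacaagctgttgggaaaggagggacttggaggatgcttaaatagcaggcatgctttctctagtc
C1qb: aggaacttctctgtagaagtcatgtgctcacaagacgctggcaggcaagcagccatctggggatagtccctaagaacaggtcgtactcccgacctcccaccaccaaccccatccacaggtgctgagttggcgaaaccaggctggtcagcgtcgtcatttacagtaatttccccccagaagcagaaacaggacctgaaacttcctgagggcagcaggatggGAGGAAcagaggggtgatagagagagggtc
The word begins 146 bases before the start in Marco and 30 bases before it in C1qb, and is not in these letters of Cd163 or Lyz2. Over windows of 300 bases, from 250 before to 50 after the start, GAGGAA or its reverse complement TTCCTC was in 16 of the 26 windows that belong to 25 members (Fcgr3 has 2) and in 28.3% of all 32851 windows. The word TCATGTG, recognised by MITF and TFEB and searched on both strands in the same way, was in 3 member windows, Ctss, C1qb and C1qc, and in 3.77% of all windows, and overlapped no GAGGAA. These matches describe the letters and were not tested. No window was matched for Adgre1, Csf1r, Lst1, C1qa, Tyrobp and Msr1.

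With IT, 22 of 29 macrophage genes were higher in vehicle livers and 11 of 29 in fibril livers, and no member passed the test. In vehicle livers, those higher in VI than in VS included all 7 resident genes, and 50.7% of all genes were higher. In fibril livers, those higher in FI than in FS included 4 of the 7 resident genes, and 50.1% of all genes were higher. The number was 12 with DESeq2's size factors, beside 51.5% of all genes, and 10 with total counts, beside 40.5% of all genes, so the distance from the share of all genes was smaller with total counts. Past 2-fold was 1 member in VI versus VS, Fcgr1 with a log2 ratio of 1.15 (0.42 to 1.96), against 1.54% of all genes higher and 1.9% lower. In FI versus FS no member was past 2-fold, against 1.72% of all genes higher and 2.54% lower, and Gpnmb, at 29 counts in FS and 0 in FI, was under the limit on low counts.

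In the additive model, 0 of 28 members changed with IT at an adjusted p under 0.05 by edgeR, against 0.765% of all genes higher and 0.714% lower. An unadjusted p under 0.05 by edgeR was found for 3 of the 28 members, and for 1726 of all 11760 genes fitted. Those 3 were Cd163 and Marco, higher with IT by log2 fold changes of 0.57 and 0.64, and Lyz2 at -0.31, with adjusted p of 0.10, 0.13 and 0.26 by edgeR. Each lay on the same side in both IT contrasts. DESeq2 and limma-voom with the same design also called 0, whereas edgeR without the filter on low counts called 3, Cd163 and Marco higher and Gpnmb lower. The share of all genes called without that filter was not counted.

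**Figure D4:**
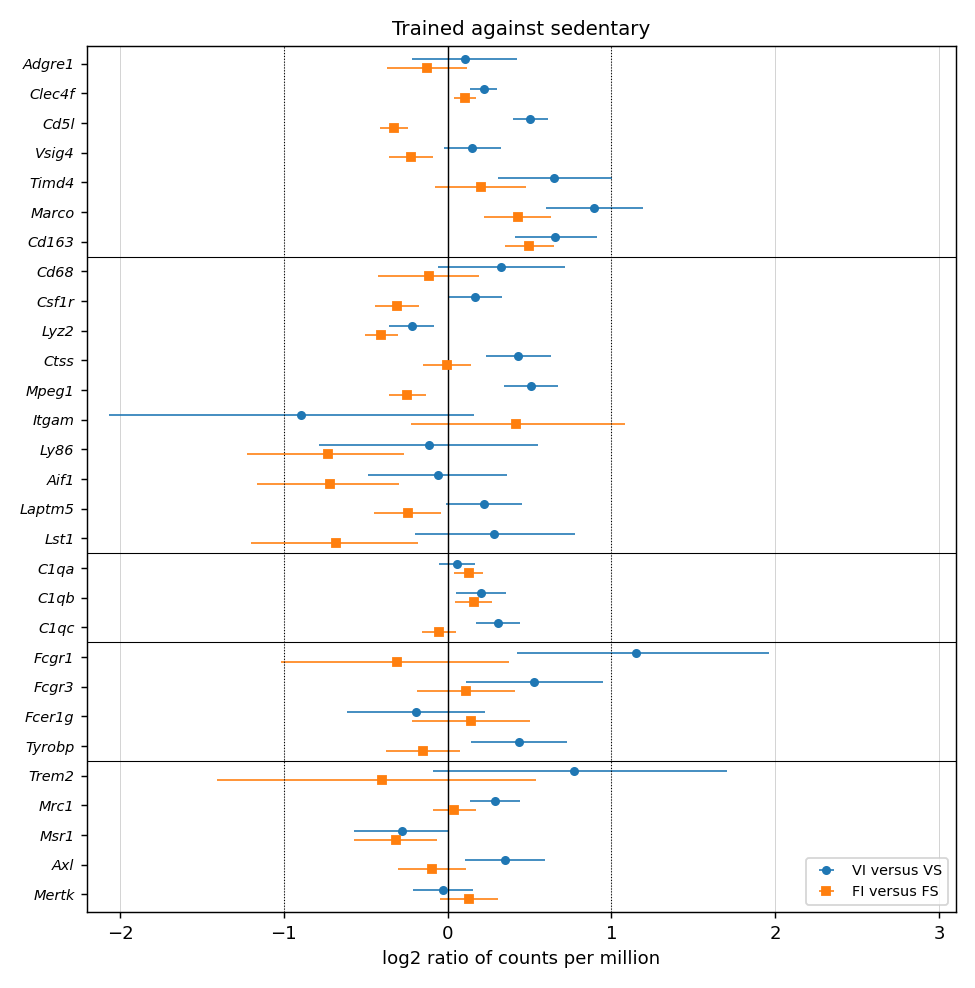
Log2 ratio of CPM in trained against sedentary livers, with vehicle (VI versus VS, circles) and with fibrils (FI versus FS, squares), for the 29 members kept. Bars are exact 95% binomial intervals for counting error, and dotted lines mark 2-fold. Circles lie right of 0 for 22 members and squares for 11, and Cd163, Marco, Clec4f and C1qb lie right of 0 in both with intervals that exclude it.

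By their medians, the resident and the other genes lay further apart with IT than with fibrils. The median log2 ratio of the resident genes was 0.50 with IT in vehicle livers and 0.10 in fibril livers, and that of the others was 0.25 and -0.13, beside 0.00 for all genes in both, so the sets differed by more than the 0.74 against 0.61 and 0.37 against 0.25 seen with fibrils. The 11 monocyte and phagocyte genes summed to 230 CPM in FS and 189 CPM in FI, a log2 ratio of -0.28 (-0.34 to -0.23), and 9 of the 10 kept were lower in FI. The resident genes summed to 311 CPM in both FS and FI, a log2 ratio of -0.00 (-0.05 to 0.04), and the C1q chains to 174 and 184 CPM, a log2 ratio of 0.08 (0.02 to 0.14). By such sums the monocyte and phagocyte genes had 0.87 in FS versus VS, above the resident genes at 0.68. With IT in vehicle livers they had 0.16, below the resident genes at 0.35. Between these sets the distance was no larger with IT in vehicle livers than with fibrils in sedentary ones, but its direction was opposite. With fibrils in trained livers the sums were 0.42 and 0.32. All 24 others summed to a log2 ratio of 0.66 with fibrils in sedentary livers and 0.39 in trained ones. With IT their sum gave 0.17 in vehicle and -0.10 in fibril livers. The intervals cover counting error in 2 pooled libraries, and the difference between the sets of genes was not tested over mice.

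Within the resident set, all 7 genes were higher in VI than in VS, while 4 were higher and 3 lower in FI than in FS. None of the 7 passed the test with IT. Cd163 had a log2 ratio of 0.66 (0.41 to 0.91) in vehicle and 0.50 (0.35 to 0.65) in fibril livers, and Marco 0.89 (0.60 to 1.19) and 0.43 (0.22 to 0.63). Clec4f had 0.22 (0.14 to 0.30) and 0.10 (0.04 to 0.17), the latter being 0.03 with total counts. These 3 were higher with IT on either background, whereas Cd5l and Vsig4 were lower in FI than in FS, with ratios of -0.33 (-0.41 to -0.24) and -0.22 (-0.36 to -0.09). Among the others, C1qb was higher in both contrasts, with 0.20 (0.05 to 0.35) and 0.16 (0.05 to 0.27), the latter being 0.09 with total counts, and Lyz2 was lower in both, with -0.22 (-0.36 to -0.08) and -0.40 (-0.51 to -0.30). Ly86, Aif1 and Lst1 were lower in FI than in FS by log2 ratios of -0.73 (-1.23 to -0.26), -0.72 (-1.16 to -0.30) and -0.68 (-1.20 to -0.18), the lowest among the 29 members.

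Other genes of the macrophage pathway, from lists that hold none of the 31, moved in part with fibrils. Among macrophage transcription factors, neither Nr1h3 nor Id3 passed the test with either factor. Nr1h3, the liver X receptor alpha, lay between 93.6 and 117 CPM, and Id3 between 33.0 and 49.7 CPM. Of 8 further Kupffer cell genes, 7 of which were fitted, none passed the test with either factor. All 7 were higher in FS than in VS, where 52% of all genes were. In FI versus VI, 5 of the 7 were higher, where 51.3% of all genes were. The highest of them, Slc40a1, which exports iron, was at 183 CPM in VS and 214 in VI, against 189 in FS and 134 in FI. C6 lay between 82.9 and 113 CPM and Sdc3 between 29.0 and 34.0 CPM.

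Of the phagocyte genes, 18 of 20 entries were fitted, and 1 rose with amyloidosis. Cd14, a co-receptor for bacterial lipopolysaccharide, had 3.30 CPM in VS and 5.34 in VI, against 11.2 in FS and 23.36 in FI, and rose with amyloidosis by 1.96 (adjusted p = 0.0017 by edgeR) and with IT by 0.91 (adjusted p = 0.044 by edgeR). Fcgr2b, the inhibitory Fc receptor, was the highest of the list and lay between 32.8 and 45.3 CPM. Cybb, the catalytic subunit of the phagocyte oxidase, had 6.56 CPM in VS and 8.37 in VI, against 13.2 in FS and 9.88 in FI.

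In the list of lipid-associated macrophage genes, 3 of 10 rose and 1 fell with amyloidosis, and none passed the test with IT. Fabp5, a fatty acid carrier, had 14.6 CPM in VS and 16.99 in VI, against 45.8 in FS and 48.7 in FI (log2 fold change 1.58, adjusted p = 0.0014 by edgeR). The tetraspanins Cd9 and Cd63 rose by 1.38 (adjusted p = 0.0080 by edgeR) and 0.95 (adjusted p = 0.033 by edgeR). Lipa, the lysosomal acid lipase, fell by 0.77 on the log2 scale (adjusted p = 0.010 by edgeR). The 3 most abundant genes of that list, Ctsl, Ctsb and Ctsd, are lysosomal proteases that hepatocytes also express, and none passed the test. Ctsl had 509 CPM in VS and 1218 in VI, against 1004 in FS and 1512 in FI (adjusted p = 0.054 for IT by edgeR). Of 4 ligand genes fitted, none passed the test with either factor, and Gas6, Pros1 and Csf1, the ligands of Axl, Mertk and Csf1r, had means of 79.4, 60.5 and 9.79 CPM. In FS versus VS and FI versus VI, the log2 ratios of Csf1 were -0.59 (-0.83 to -0.35) and -0.62 (-0.92 to -0.34). Those of Pros1 were 0.75 (0.64 to 0.86) and 0.20 (0.09 to 0.30), and those of Gas6 -0.21 (-0.29 to -0.13) and -0.03 (-0.12 to 0.07). Ccl2, under the limit on low counts, had 24 counts in FS, against 3 in VS, 2 in VI and 3 in FI.

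Markers of other cells moved with some of these contrasts. The 13 skeletal muscle genes summed to 80.9 CPM in VS and 10.7 in VI, against 1.15 in FS and 1.07 in FI, and 3 of the 4 fitted fell with both factors. The log2 ratio of the sum was -6.13 in FS versus VS, -3.32 in FI versus VI and -2.92 in VI versus VS, with all 12 genes kept lower in each, and its part in the members' differences was not tested. The 14 neutrophil genes summed to 4.40 CPM in VS and 5.13 in VI, against 22.1 in FS and 15.3 in FI. In FS and FI most of this was Prtn3, proteinase 3, at 13.1 and 10.1 CPM against 0.593 in VS and 1.11 in VI, without which the sums were 3.81, 4.02, 9.01 and 5.21 CPM, while Ctsg was at 0 in all 4 libraries and Mpo and Elane had at most 5 counts. The 4 neutrophil genes kept, Prtn3, S100a8, S100a9 and Csf3r, were all past 2-fold in FS versus VS, against 3.6% of all genes. In FI versus VI 1 of the 4 was, Prtn3, against 2.59% of all genes. Csf3r had 34 counts in VS and 35 in VI, against 88 in FS and 29 in FI. S100a8, which reached 1 CPM only in FS and FI, had 21 counts in VS and 22 in VI, against 65 and 41. Lyz2, which neutrophils also express, was at 71.1 CPM in FS.

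Monocytes beyond the members were traced by 7 genes, of which Plac8 lay between 4.31 and 6.10 CPM. Ms4a6c had 9 counts in VS and 13 in VI, against 38 in FS and 29 in FI, past 2-fold with fibrils on both backgrounds. It was counted only because it reached 1 CPM in FS and FI, the libraries where it was high. Ly6c2, a defining gene of the inflammatory monocyte, had at most 10 counts per library, and S100a4 at most 12. The lists of dendritic cell genes (6.64 to 9.11 CPM), T and NK cell genes (3.06 to 5.25 CPM) and B cell genes (2.63 to 5.55 CPM) were low in every library. Sinusoidal endothelial genes summed to between 222 CPM in FS and 270.1 CPM in FI, where 1 of 8, Lyve1, rose with amyloidosis. Of plasma cell genes, Xbp1 and Derl3, which hepatocytes also express, rose with amyloidosis, as did 1 bile duct gene, Sox9, and 1 hepatocyte gene, Tat, which also rose with IT. The plasma cell list summed to between 394 CPM in VS and 517 CPM in FS, the stellate cell list to between 167 CPM in VI and 200.1 CPM in FI, the erythroid list to between 253 CPM in FS and 361 CPM in VS, and the bile duct list to between 12.6 CPM in FI and 20.1 CPM in FS. No stellate cell, erythroid, dendritic, T and NK or B cell gene passed the test, but for some of these lists few genes could be tested. Fitted were 6 of 7 stellate cell genes, 4 of 7 erythroid, 2 of 7 dendritic, 1 of 11 T and NK and 1 of 6 B cell genes. The part of these cells in the members' values was not tested.

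**Figure D5:**
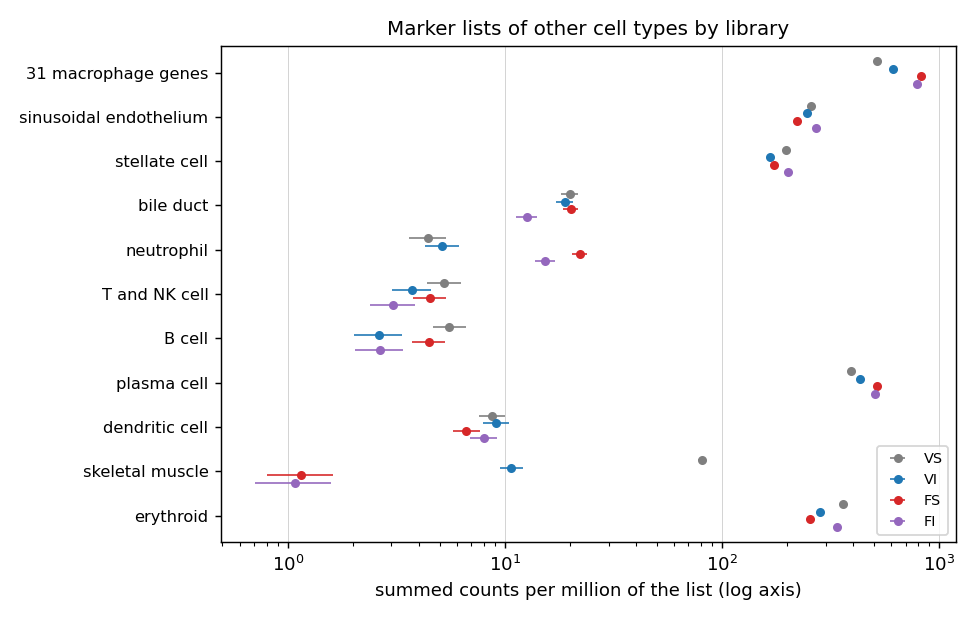
Summed CPM, on a log axis, of the 31 macrophage genes and of marker lists of 10 other cell types in the 4 libraries. Bars are exact 95% Poisson intervals for counting error, some narrower than the points. The macrophage sum goes from 519 CPM in VS to 824 CPM in FS, the muscle sum is high in VS at 80.9 CPM, and the neutrophil sum is 22.1 CPM in FS.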

How the data were processed

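Liver RNA of 4 female mice per group was pooled and sequenced as 1 library for each of 4 groups. Per the submitters' processing notes, fastp 0.23.2, STAR 2.5 and HTSeq 0.6.1 were used with the mm10 build. The authors deposited raw read counts per gene and FPKM values computed from them, and all 69722 FPKM values above 0 equal the values recomputed here from counts, gene length and library total within 0.1%. Counts were scaled by TMM (edgeR 4.0.16), and ratios were taken with a prior of 0.5 counts and exact 95% binomial intervals, which cover counting error only. For the additive model, genes with at least 1 CPM in 2 libraries were kept, rescaled and tested by quasi-likelihood in edgeR (robust), with Benjamini-Hochberg adjustment over all 11760 genes. The scripts were tested on simulated data. Alternatives used DESeq2 1.42.0, limma 3.58.1 and the deposited FPKM. The 31 members, their roles and the 17 other lists were chosen with earlier results of these data known, and all members are reported. From each other list up to 3 genes with the highest mean CPM are named, with those past the adjusted p or past 2-fold in both contrasts of a factor. Some further genes at few counts are named as well. The counts of the transcription factor list and a result in it are not reported here. Muscle, hepatocyte and other cell lists are given more briefly. With 1 library per group, the p-values set a difference against the departure from additivity in these 4 libraries, with information shared across genes. They do not measure a spread between mice or between replicate libraries.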

Additional observations from a re-analysis of the deposited data

Results flagged for a closer look

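In 4 members the same factor went with opposite differences in the 2 backgrounds, with both counting intervals clear of 0. Each rests on single pooled libraries and the difference between backgrounds was not tested over mice. The share of all genes with such opposite differences was not counted, so these 4 cannot be called more than all genes would give. Taken contrast by contrast, the intervals of 22.3% to 27.2% of all genes lay above 0, and those of 21.7% to 25.7% below it. The log2 ratio of Fcgr1 was 0.76 (0.01 to 1.57) in sedentary and -0.70 (-1.40 to -0.04) in trained livers, on 22 to 51 counts. That of Cd5l was 0.50 (0.40 to 0.61) in vehicle and -0.33 (-0.41 to -0.24) in fibril livers. Csf1r had 0.17 (0.01 to 0.33) and -0.31 (-0.44 to -0.18) in the same 2 contrasts, and Mpeg1 0.51 (0.34 to 0.67) and -0.25 (-0.36 to -0.13).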

How the results depend on the processing

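No paired analysis was possible because each group has 1 library and no replicate numbers are shared. The 7 members called with amyloidosis became 4 with DESeq2 in the same design, 16 without a filter on low counts and 0 with amyloidosis as the sole factor. With IT, 3 were called without the filter (Cd163 and Marco higher, Gpnmb lower) and 0 otherwise. The number past 2-fold with a 1.5-fold threshold was 17 in FS versus VS, 8 in FI versus VI, 6 in VI versus VS, and 3 when FI was set against FS. On FPKM with a pseudocount of 1 it was 2 in FS versus VS, 0 in FI versus VI and 0 in VI versus VS, and with a pseudocount of 0.1 it was 0 in VI versus VS. With at least 5 CPM in 1 library it was 1 in FI versus VI and 0 in VI versus VS, and without a filter 1 in FI versus FS, which is Gpnmb. The shares of all genes at these other settings were not counted. The medians of the resident and the other genes stayed within the medians of their members' counting intervals under all alternatives run, though the summed CPM of the resident genes gave -0.00 in place of 0.10 in FI versus FS. The sign turned for the Itgam log2 fold change with training as the sole factor (0.0066) and for the Fcgr1 log2 fold change with amyloidosis in DESeq2 (0.0085), both near 0. Other than the filter and the number of factors, whose construction changes what is fitted, the cause was not tested. Counts under about 50, as for Itgam, Ccr2, Fcgr1, Trem2 and Gpnmb, leave intervals over 1 log2 unit wide.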
